A study of Mus musculus with 20 samples.

Results

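The guanylate-binding proteins (GBPs) and immunity-related GTPases (IRGs) were examined as 10 genes, chosen by symbol from the 24421 genes in the per-library count files: Gbp2, Gbp3, Gbp4, Gbp5, Gbp6, Gbp7, Irgm1, Irgm2, Igtp and Iigp1. All 10 were found and all 10 passed edgeR's filter on low counts. Both families are GTPases that cells make after exposure to interferons, with interferon gamma as the classical inducer and type I interferons as inducers of many of them. GBPs assemble as coats on bacteria and on the vacuoles that enclose intracellular parasites, and help caspase-dependent inflammasomes sense them. Among the IRGs, Irgm1, Irgm2 and Igtp (also called Irgm3) are regulators that sit on the cell's own membranes, whereas Iigp1 (also called Irga6) is an effector that is loaded onto pathogen vacuoles.

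Bone marrow neutrophils were profiled by bulk RNA sequencing in 4 groups of 5 libraries from female mice. WT mice were C57BL/6J from a supplier. Bmal1 Mye-/- mice, called KO here, were bred in house by crossing B6.129S4(Cg)-Bmal1tm1Weit/J with B6.129P2-Lyz2tm1(cre)Ifo/J, so that LysMCre removes floxed Bmal1 in cells of the myeloid lineage. Mice of each genotype were left untreated or received imiquimod (IMQ), a Toll-like receptor agonist, as a 5% cream on the ears 3 times per week for 6 weeks, starting at 8 to 10 weeks of age, and all were euthanized at Zeitgeber time 1 to 4. The ages of the untreated mice are not stated separately, and WT and KO mice also differed in the Cre insertion and in where they were bred. Neutrophils were taken by magnetic negative selection with a purity above 95%. The labels number the libraries 1 to 5 in each group, and p-values measure the spread between these libraries. The questions addressed were what IMQ does to these neutrophils and whether Bmal1 loss changes that.

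The libraries held between 30782166 and 92613500 reads on genes (median 66094896). The floxed gene, listed as Arntl, was low and overlapped between genotypes, at 0.895 to 1.71 CPM (a gene's reads scaled to the TMM-adjusted library size) in untreated WT and 0.468 to 1.10 in untreated KO. Lyz2, into which Cre is inserted, separated them at 2465 to 12030 CPM in WT and 58.8 to 177.3 in KO. The 9 neutrophil markers found sum to 69370 to 149700 CPM, while B lineage markers sum to at most 26.03 and T and NK markers to at most 24.77. Monocyte and macrophage markers were 268.2 to 413.6 CPM untreated but 1753 in KO IMQ 1 and 647.8 in KO IMQ 2, and early neutrophil markers reached 1668 in KO IMQ 1 against at most 1160 untreated. Eosinophil markers sum to 37.06 to 140.9 CPM untreated, 42.87 to 210.3 in KO IMQ and 21.26 to 42.02 in WT IMQ. With IMQ, 3 of the 7, Prg3, Prg2 and Epx, were called higher in KO than in WT by edgeR and 0 lower, where 0.185% and 0.107% of all genes tested were. Of the 8 erythroid markers, 4 globin genes were at 0 in every library, and the list sums to 18.69 to 324.4 CPM. In these bulk libraries, fewer cells of a type and less RNA per cell cannot be told apart.

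The genes lie in clusters, which bears on how reads are counted. On mm10, with GENCODE vM21 gene models, Gbp5 (chr3:142493978-142522344), Gbp7 (chr3:142530342-142550149), Gbp3 (chr3:142560026-142573209) and Gbp2 (chr3:142620602-142638008) follow each other on the plus strand of chromosome 3. Gbp4 (chr5:105115767-105139586) and Gbp6 (chr5:105270702-105293698) belong to a minus strand cluster on chromosome 5. Irgm1 (chr11:48861968-48871683, minus strand), Igtp (chr11:58199556-58207591, plus strand) and Irgm2 (chr11:58199618-58222782, plus strand) are on chromosome 11, with Igtp and Irgm2 sharing 162 exonic bases.

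Promoter sequences from RefSeq (GRCm38.p6, the assembly of mm10) were at hand for 7 of the 10 genes, each covering 250 bases before to 50 bases after the start. They were searched on both strands for the gamma-activated site, spelled TTCNNNGAA, and for the interferon-stimulated response element, spelled GAAA, any 2 bases and GAAA again. The response element was found in the promoters of 7 genes and the gamma-activated site in those of 4, namely Gbp5, Gbp7, Igtp and Irgm2. Among all 32851 promoters, 3.443% held the response element, 8.298% the gamma-activated site and 0.4536% both. A match describes letters in this window and was not tied to binding here. Gbp3 had a second promoter sequence (chr3:142560106-142560405, plus strand), which held neither motif and is not shown. The sequences are shown because each of the 7 genes has a promoter with the response element. It begins 165 bases before the start in Gbp5 and 24 to 64 bases before it in the other 6. Capitals mark the matches on either strand, a response element on the opposite strand being read as its reverse complement. The 120 bases before the start of Gbp7 (chr3:142530216-142530335, plus strand), Igtp (chr11:58199436-58199555, plus strand) and Irgm2 (chr11:58214857-58214976, plus strand), none of them in an annotated exon, were as follows.
Gbp7: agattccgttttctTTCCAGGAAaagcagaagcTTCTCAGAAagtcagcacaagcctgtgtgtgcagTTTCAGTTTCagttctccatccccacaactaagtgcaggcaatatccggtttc
Igtp: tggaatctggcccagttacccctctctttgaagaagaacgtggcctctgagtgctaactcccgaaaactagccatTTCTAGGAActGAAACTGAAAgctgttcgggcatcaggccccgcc
Irgm2: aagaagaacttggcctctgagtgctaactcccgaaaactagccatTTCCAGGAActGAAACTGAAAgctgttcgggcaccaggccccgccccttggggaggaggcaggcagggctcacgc
In Igtp and Irgm2 only the bases ct lay between the gamma-activated site and the response element after it. The site and the element began 45 and 34 bases before the start of Igtp and 75 and 64 bases before that of Irgm2. Gbp7 had its 2 gamma-activated sites 106 and 87 bases and its response element 53 bases before the start.

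Short windows around the matches are given for the other 4 genes: Gbp2 (chr3:142620594-142620623, plus strand), Gbp3 (chr3:142559992-142560021, plus strand), Irgm1 (chr11:48871428-48871457, minus strand) and Gbp5 (chr3:142496684-142496707, chr3:142496759-142496788 and chr3:142496872-142496900, plus strand). Annotated exons cover all 30 bases of the Irgm1 window, 22 of 30 in the Gbp2 window and 1 base of the Gbp5 window nearest the start.
Gbp2: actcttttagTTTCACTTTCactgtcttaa
Gbp3: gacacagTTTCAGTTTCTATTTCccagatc
Irgm1: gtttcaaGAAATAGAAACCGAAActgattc
Gbp5, farthest window: gcaacTTCTGGGAAattagttcag
Gbp5, middle window: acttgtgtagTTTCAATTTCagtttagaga
Gbp5, nearest window: tggccgttatTTCTCAGAAccaagcacag
Gbp3 and Irgm1 held 2 overlapping response elements each, beginning 45 and 39 bases before the start in Gbp3 and 30 and 24 bases before it in Irgm1.

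Untreated neutrophils held the families at very unequal levels. Scaled per kilobase of exon, WT untreated libraries averaged 15.04 ± 2.46 CPM per kb for Igtp, 13.2 ± 3.81 for Irgm2, 11.1 ± 2.60 for Gbp2 and 9.35 ± 1.49 for Gbp7 (SD, n = 5), and the ranges of each neighbouring pair in this order overlapped. Irgm1 followed at 5.83 ± 1.17 CPM per kb, with a range of 4.10 to 6.98 that lay below the range of Gbp7, 7.30 to 10.92. Gbp3 (0.825 CPM per kb), Gbp5 (0.262), Iigp1 (0.176), Gbp4 (0.0826) and Gbp6 (0.0166) came next. The ranges of Gbp5 and Iigp1, and of Iigp1 and Gbp4, overlapped, while Gbp3 lay below Irgm1 and Gbp6 below Gbp4 without overlap. The 5 abundant genes thus made up most of the families' transcripts, from 26.92% of the sum for Igtp to 10.42% for Irgm1, against 1.477% for Gbp3. KO untreated libraries had the same order. The effector Iigp1 was among the scarce members, while all 3 regulatory IRGs were among the abundant ones. Iigp1 cannot stand for effectors as a class. Ifi47, an IRG outside the 10 genes, averaged 4.857 CPM per kb in WT untreated libraries.

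The depth of the scarce genes limits what can be said of them. Reads per library were 1 to 88 for Gbp6, 2 to 82 for Gbp4, 14 to 218 for Iigp1 and 20 to 679 for Gbp5, against 830 to 12220 for Igtp and 1259 to 23251 for Gbp7. Of the 50-base words of the Gbp6 transcripts, 70.65% also occur in another gene, and Gbp6 shares 1726 exonic bases with Gm43302 on the same strand, so its values are uncertain. The share was 12.74% for Gbp7, which shares 637 bases with the pseudogene Gm43802, 11.77% for Igtp, 7.828% for Irgm2 and 7.779% for Gbp4, and below 4% for the remaining 5 genes.

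**Figure D1:**
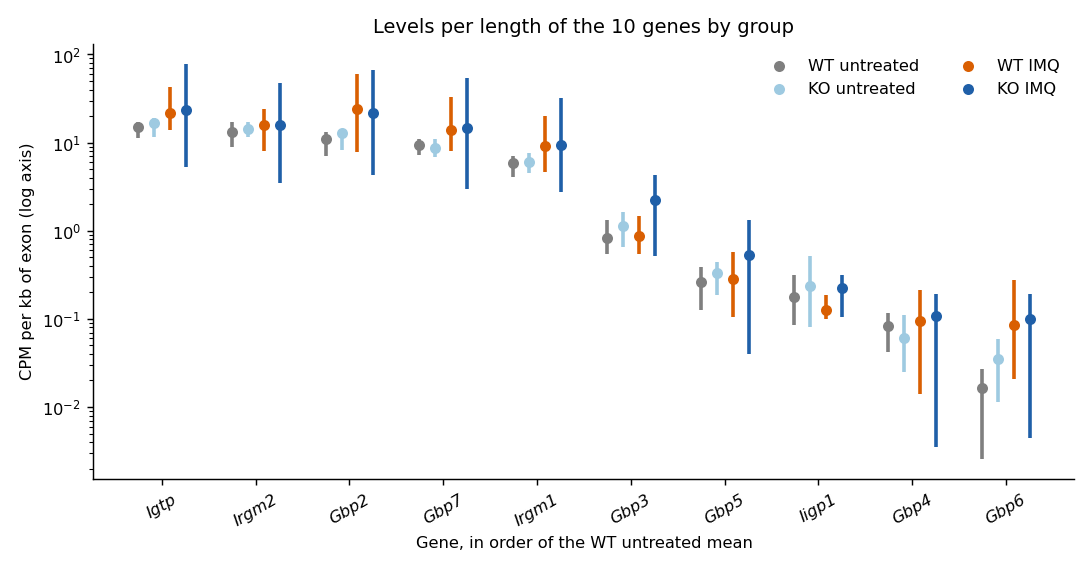
CPM per kilobase of exon (log axis) of the 10 genes in each group, in order of the WT untreated mean; points are means of 5 libraries and bars run from the lowest to the highest library. Igtp, Irgm2, Gbp2, Gbp7 and Irgm1 lie above the other 5 genes in untreated libraries, and for every gene but Iigp1, whose untreated bars are the longer ones, the IMQ bars are longer than the untreated bars of the same genotype.

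Without treatment, no difference between the genotypes was called for any of the 10 genes. Igtp was 22.54, 28.50, 33.86, 34.47 and 32.69 CPM in WT libraries 1 to 5 and 34.16, 36.33, 36.52, 38.29 and 23.62 CPM in KO. Gbp7, which in macrophages aids assembly of the phagocyte oxidase, was 41.00, 48.91, 51.23, 61.32 and 60.05 CPM in WT and 48.02, 49.15, 48.44, 61.79 and 38.52 CPM in KO. These groups overlapped, as they did for all 10 genes, and KO untreated 5 was the lowest KO library for both. Log2 fold changes of KO over WT ran from -0.42 for Gbp4 to 1.09 for Gbp6, with a median of 0.19 over the 10 genes and -0.00 over all 14030 genes tested. By the quasi-likelihood test of edgeR, with p-values adjusted over all genes tested by the Benjamini-Hochberg method, 0 of 10 were called higher and 0 lower, where 0.107% and 0.0998% of all genes were. None had an unadjusted p under 0.05, and DESeq2 and limma called 0 as well.

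After IMQ the libraries of each genotype spread widely, with a few of them far from the rest. Gbp2, a prenylated GBP that is recruited to parasite vacuoles, was 17.92, 24.68, 32.60, 33.10 and 31.31 CPM in WT untreated libraries 1 to 5 and 149.5, 43.26, 19.82, 59.28 and 29.25 CPM in WT IMQ. In KO it was 36.20, 34.31, 35.48, 35.97 and 20.93 CPM untreated and 14.25, 53.74, 28.04, 167.2 and 10.84 CPM after IMQ. WT IMQ 1 and KO IMQ 4 stood highest, KO IMQ 1 and 5 lay below every untreated library, and treated and untreated libraries overlapped in both genotypes.

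Gbp7 gave a sharper contrast between single libraries. It measured 186.0, 44.89, 46.94, 53.03 and 59.50 CPM in WT IMQ 1 to 5 and 20.54, 47.16, 25.29, 301.8 and 16.56 CPM in KO IMQ 1 to 5. The other 4 WT IMQ libraries fell inside the untreated WT range, whereas KO IMQ 1, 3 and 5 fell below all 5 untreated KO libraries while KO IMQ 4 was above them. The coefficient of variation of Gbp7 was 16.85% in KO untreated and 149.9% in KO IMQ.

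The 3 regulatory IRGs followed the same libraries. Irgm1, a regulator that also acts in autophagy, was 23.81, 30.75, 34.86, 39.22 and 40.57 CPM in WT untreated and 115.9, 30.83, 55.19, 27.18 and 36.89 CPM in WT IMQ. In KO it was 34.30, 36.94, 34.00, 44.18 and 26.53 CPM untreated and 16.27, 33.18, 20.64, 184.3 and 15.85 CPM with IMQ. WT IMQ 1, then WT IMQ 3, were above the untreated WT libraries, and KO IMQ 1, 3 and 5 were below the untreated KO libraries.

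Irgm2, which in macrophages restrains noncanonical inflammasome activation, was 33.18, 35.75, 49.80, 63.87 and 60.91 CPM in WT untreated and 63.30, 61.98, 44.80, 53.63 and 42.88 CPM in KO untreated. With IMQ it was 89.12, 29.82, 45.31, 63.90 and 61.12 CPM in WT and 12.82, 53.39, 29.02, 175.8 and 17.56 CPM in KO. Igtp, whose product lies on endoplasmic reticulum and lipid droplets, was 85.62, 27.92, 37.91, 35.68 and 32.28 CPM in WT IMQ and 10.77, 32.93, 20.71, 158.6 and 12.04 CPM in KO IMQ. For both genes the treated groups overlapped the untreated ones, with KO IMQ 4 at the top of all 20 libraries and KO IMQ 1, 3 and 5 below every untreated KO library.

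**Figure D2:**
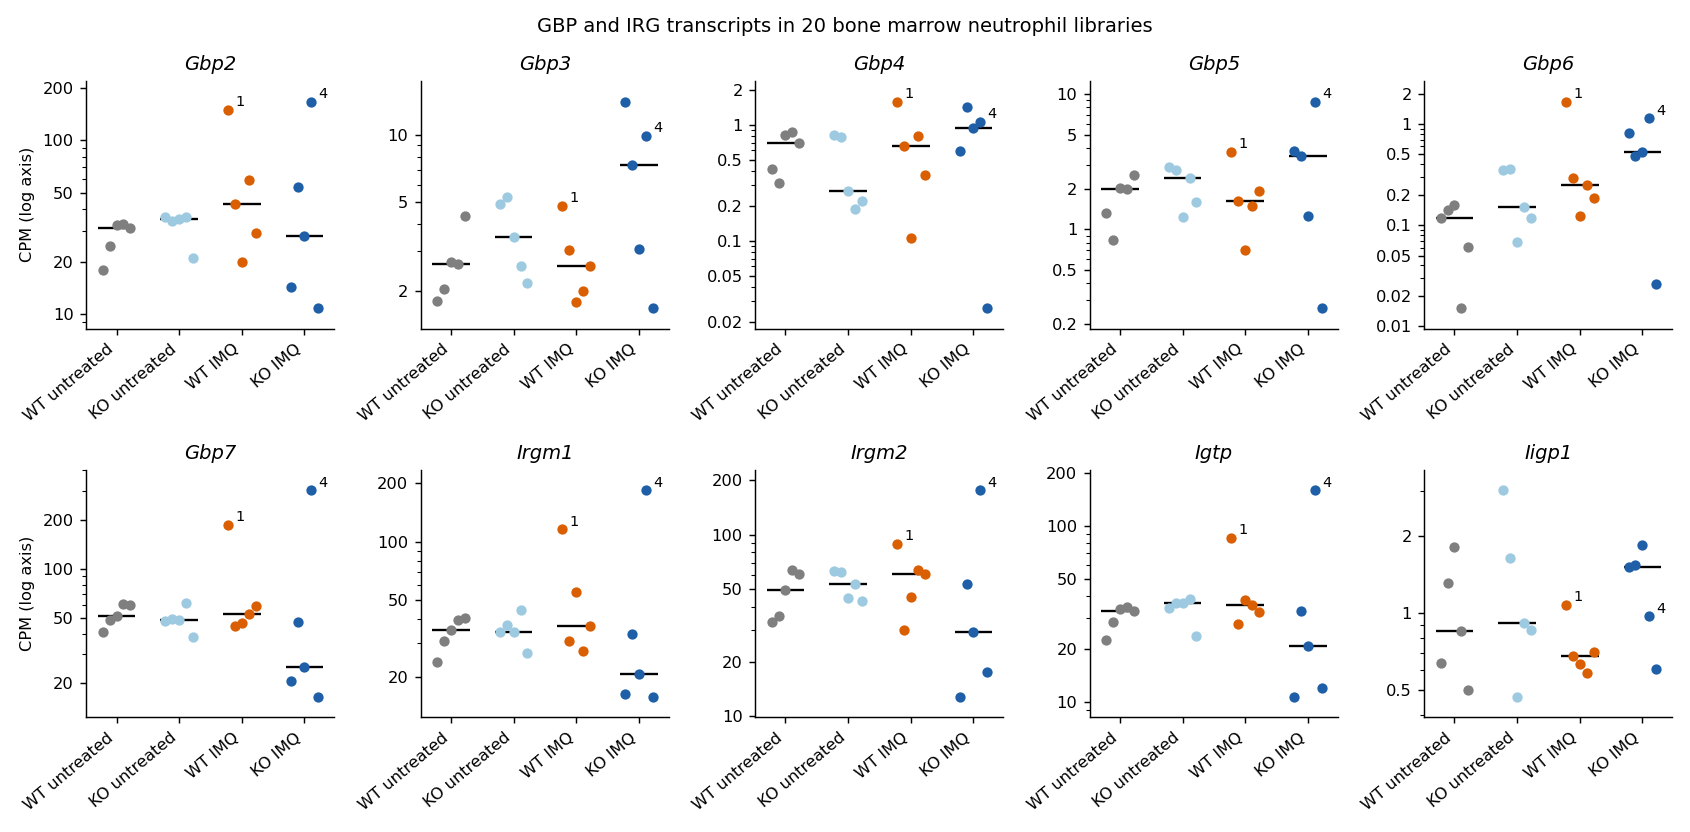
CPM (log axes) of each gene in every library, by group; points are libraries, lines are group medians, and WT IMQ 1 and KO IMQ 4 are numbered. For Gbp7, Irgm1, Irgm2 and Igtp, KO IMQ 4 lies far above the other KO IMQ libraries, and the KO IMQ median lies below the untreated median.

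The less abundant GBPs were less uniform. Gbp3 was 1.793, 2.026, 2.691, 2.624 and 4.335 CPM in WT untreated and 4.906, 5.277, 3.467, 2.582 and 2.159 CPM in KO untreated. With IMQ it was 4.804, 3.029, 1.784, 1.990 and 2.583 CPM in WT and 14.16, 7.335, 3.071, 9.956 and 1.671 CPM in KO. Its highest library was KO IMQ 1, where the 5 abundant genes were low.

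Gbp5, a prenylated GBP tied to the Nlrp3 inflammasome, was 0.8357 to 2.546 CPM in WT untreated and 1.245 to 2.918 CPM in KO untreated. It was 3.764, 1.611, 0.6998, 1.479 and 1.914 CPM in WT IMQ and 3.815, 3.495, 1.260, 8.813 and 0.2631 CPM in KO IMQ. Gbp4, a GBP of the chromosome 5 cluster, was 0.1871 to 0.8647 CPM over the 10 untreated libraries, 1.581, 0.6601, 0.1050, 0.7925 and 0.3717 CPM in WT IMQ and 0.5968, 1.426, 0.9407, 1.064 and 0.02631 CPM in KO IMQ. Both were lowest of all 20 libraries in KO IMQ 5, and the groups overlapped.

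Gbp6, of the same chromosome 5 cluster, was 0.1186, 0.1416, 0.1590, 0.01517 and 0.06063 CPM in WT untreated and 1.664, 0.2912, 0.1225, 0.2466 and 0.1858 CPM in WT IMQ. In KO it was 0.3474, 0.3561, 0.06732, 0.1497 and 0.1167 CPM untreated and 0.8174, 0.4829, 0.5325, 1.142 and 0.02631 CPM with IMQ. Of the IMQ libraries, 4 of 5 in each genotype were above all untreated libraries of that genotype, the exceptions being WT IMQ 3 and KO IMQ 5. Iigp1 showed no such shift. It was 0.5002 to 1.810 CPM in WT untreated, 0.4712 to 3.030 in KO untreated, 0.5812 to 1.081 in WT IMQ and 0.6052 to 1.846 in KO IMQ, and no IMQ library left the untreated range of its genotype.

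In WT, IMQ against untreated gave log2 fold changes of 1.11 ± 0.60 for Gbp2 (SE, adjusted p = 0.290), 2.30 ± 0.83 for Gbp6 (adjusted p = 0.107), 0.57 ± 0.62 for Gbp7 (adjusted p = 0.633) and 0.65 ± 0.56 for Irgm1 (adjusted p = 0.529) by edgeR's quasi-likelihood test. The other 6 genes lay between -0.48 for Iigp1 and 0.53 for Igtp. The median was 0.39 over the 10 genes and 0.03 over all genes, and 9 of 10 values were positive (8 with library sizes alone as scaling). No gene was called: 0 of 10 were higher and 0 lower at adjusted p under 0.05 in edgeR, where 2.34% and 1.6% of all genes tested were. Only Gbp6 was under 0.05 before adjustment (unadjusted p = 0.0119, adjusted p = 0.107 by edgeR). DESeq2 called Gbp6 higher (log2 fold change 2.34, adjusted p = 0.0412), where it called 5.71% of all genes higher, and limma called 0. Without WT IMQ 1 the value of Gbp6 was 1.07 (adjusted p = 0.484), that of Gbp2 was 0.44, that of Gbp7 was -0.04 and that of Irgm1 was 0.15.

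In KO, the fitted changes were also positive for 9 of 10 genes (10 with library sizes alone), with a median of 0.72 against 0.02 over all genes. The largest was Gbp6 at 1.48 ± 0.79 (adjusted p = 0.166), and Gbp3 was 0.97 ± 0.45 (unadjusted p = 0.0419, adjusted p = 0.113). Gbp2 was 0.75 ± 0.60, Gbp7 0.74 ± 0.62, Irgm1 0.62 ± 0.56, Igtp 0.48 ± 0.54 and Irgm2 0.11 ± 0.50 on the log2 scale. By edgeR, 0 of 10 were called higher and 0 lower, where 14.4% and 9.04% of all genes tested were. Gbp3 alone had an unadjusted p under 0.05, and DESeq2 and limma called 0. Without KO IMQ 5, Gbp3 was called higher at 1.23 (adjusted p = 0.0479), as were 8.1% of all genes.

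For the 5 abundant genes, the direction in KO rested on KO IMQ 4. Medians and means differed in direction: for Gbp7 the KO IMQ median was 25.29 CPM and the untreated median 48.44, for Irgm1 20.64 and 34.30, for Irgm2 29.02 and 53.63, for Igtp 20.71 and 36.33, and for Gbp2 28.04 and 35.48. Without KO IMQ 4 the log2 fold changes were -0.83 ± 0.37 for Gbp7 (edgeR adjusted p = 0.0976), -0.69 ± 0.34 for Irgm1 (adjusted p = 0.132), -0.90 ± 0.35 for Irgm2 (adjusted p = 0.0640), -0.80 ± 0.32 for Igtp (adjusted p = 0.0712) and -0.27 ± 0.48 for Gbp2. A fit without both WT IMQ 1 and KO IMQ 4, chosen after seeing the data, called Gbp7 (edgeR adjusted p = 0.0191), Igtp (adjusted p = 0.0322) and Irgm1 (adjusted p = 0.0418) lower in KO IMQ, where 9.03% of all genes were called lower, and Irgm2 was at adjusted p = 0.0589. The 2 libraries left out held the highest values of these same genes, so these p-values are not independent of the choice. Gbp3 and Gbp6 stayed positive in that fit, at 0.85 and 1.13.

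Between the genotypes under IMQ, Gbp3 had the largest difference, 1.35 ± 0.45 higher in KO on the log2 scale (unadjusted p = 0.00741, adjusted p = 0.191 by edgeR). Gbp5 was 0.90 ± 0.59 (adjusted p = 0.347), Iigp1 0.81 ± 0.45 (adjusted p = 0.284), and the other 7 lay between -0.14 and 0.27. By edgeR, 0 of 10 were called higher and 0 lower, where 0.185% and 0.107% of all genes tested were. Only Gbp3 had an unadjusted p under 0.05, and DESeq2 and limma called 0. Without KO IMQ 4, Gbp7 was called lower in KO at -1.50 ± 0.38 (edgeR adjusted p = 0.0496), where 0.77% of all genes were called lower. Irgm1 at -1.30, Igtp at -1.19, Gbp2 at -1.17 and Irgm2 at -1.04 were not called in that fit. The library left out held the highest Gbp7 value, 301.8 CPM, while WT IMQ 1, at 186.0 CPM, stayed in. Without both libraries, a choice made after seeing the data, 0 of the 10 genes were called higher and 0 lower by edgeR. Of 14278 genes tested in that fit, 27 were called higher and 26 lower.

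The test of whether the IMQ effect differed between genotypes gave differences of -0.82 for Gbp6 to 0.90 for Gbp3 on the log2 scale, with a smallest adjusted p of 0.640 in edgeR. None of the 10 genes was called in either direction, and 0% of all genes tested were, by edgeR or by DESeq2 or limma. None of the 10 had an unadjusted p under 0.05, and 721 of all genes did. Comparisons here share groups: each IMQ group enters 2 of them besides this one.

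**Figure D3:**
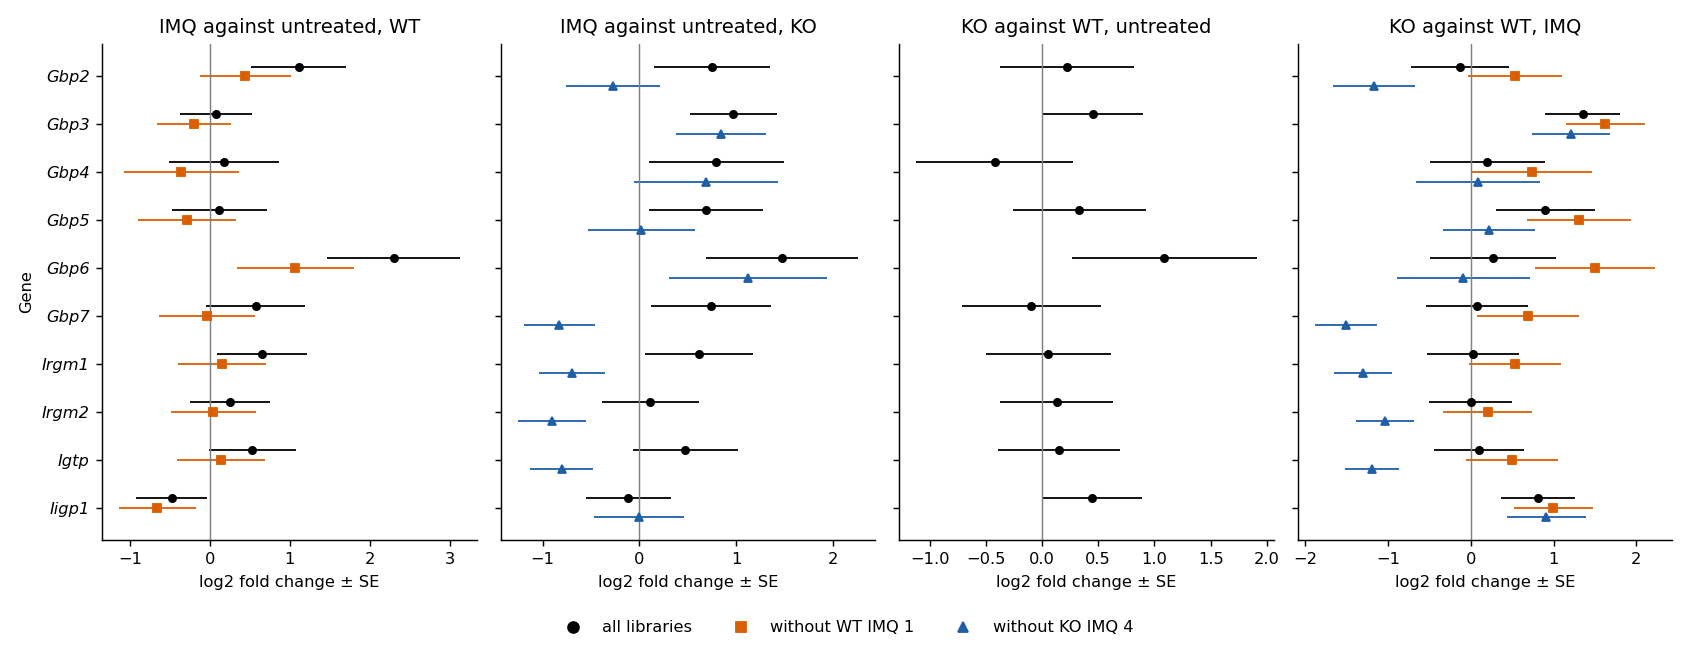
Fitted log2 fold change (x axis, bars are SE) of each gene in 4 comparisons, with all libraries (circles), without WT IMQ 1 (squares) and without KO IMQ 4 (triangles). The values of Gbp7, Irgm1, Irgm2 and Igtp for IMQ against untreated in KO pass from positive to negative when KO IMQ 4 is left out.

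Read library by library, family levels were high, ordinary or low within a single IMQ group. WT IMQ 1 exceeded all 10 untreated libraries for 8 of 10 genes, with a median fold of 2.684 over the untreated mean of its genotype, and KO IMQ 4 did so for 9 of 10, with a median fold of 4.367. Folds in KO IMQ 4 were 6.136 for Gbp7, 5.506 for Gbp6, 5.237 for Irgm1, 5.133 for Gbp2, 4.695 for Igtp, 4.04 for Gbp5 and 3.298 for Irgm2. In WT IMQ 1 they were 16.81 for Gbp6, 5.356 for Gbp2, 3.543 for Gbp7, 3.425 for Irgm1 and 2.815 for Igtp. The 1 gene of KO IMQ 4 inside the untreated range was Iigp1, at 0.9735 CPM.

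At the other end, KO IMQ 5 was below all 10 untreated libraries for 8 genes, with a median fold of 0.3348, and lowest of all 20 libraries for 6. KO IMQ 1 was below for 5 genes and above for 3, and KO IMQ 3 below for 4 and above for 2. KO IMQ 2 was above for 5 genes and below for 0. The share of all genes placed above or below in this way was not computed. Other lists were low in KO IMQ 5 too. Below all 10 untreated libraries were 14 of 20 type I interferon-stimulated genes and 10 of 14 interferon gamma targets. In each of these lists, 1 gene was above. Also below were 10 of 11 interferon transcription factors, 6 of 7 interferon receptors and kinases and 7 of 9 neutrophil markers. For prenylation enzymes and early neutrophil markers the number below was 0 of 5 each. In KO IMQ 1, 9 of 9 neutrophil markers were below. WT IMQ 2, 4 and 5 had median folds of 0.9218, 1.091 and 1.075, and WT IMQ 3 had 0.8019. Over the 10 genes the summed level was 142.7 to 240.1 CPM in untreated libraries, 639.1, 183.0, 208.5, 244.2 and 224.8 in WT IMQ 1 to 5 and 95.54, 234.7, 131.4, 1010 and 75.46 in KO IMQ 1 to 5.

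**Figure D4:**
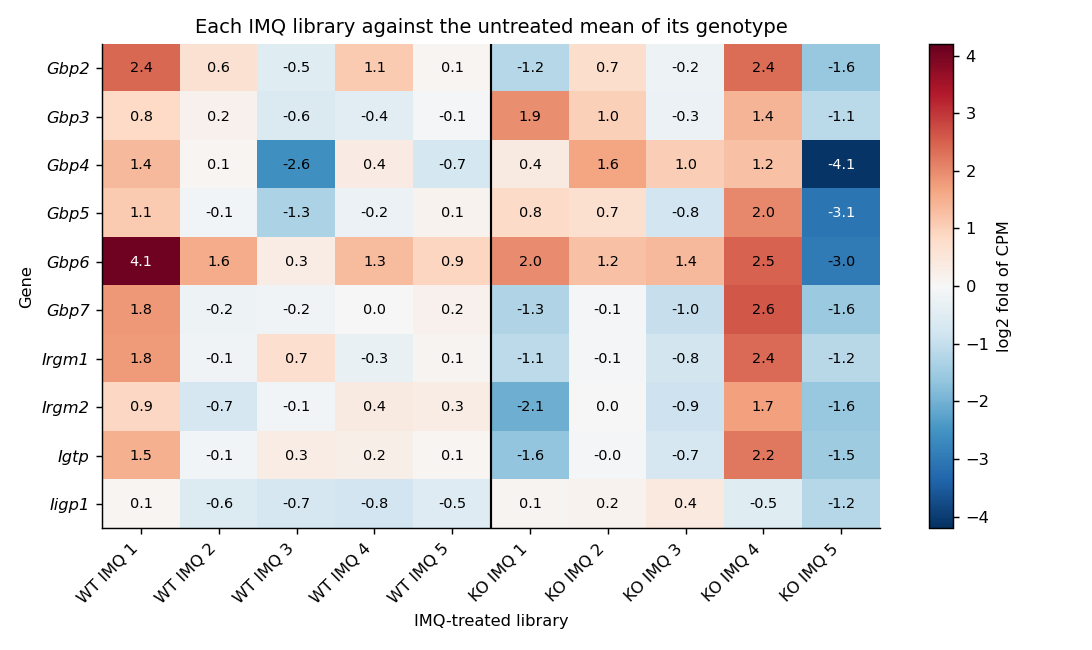
Log2 fold of the CPM of each gene (rows) in each IMQ library (columns) over the untreated mean of its genotype, with red above and blue below. WT IMQ 1 and KO IMQ 4 are red for most genes, KO IMQ 5 is blue for all 10, and KO IMQ 1 is red for Gbp3 and Gbp6 and blue for the abundant genes.

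Measures of cell type and maturity differed between these libraries. KO IMQ 1, KO IMQ 5 and WT IMQ 3 were low in Csf3r, the G-CSF receptor of mature neutrophils, at 475.6, 529.4 and 408.7 CPM against 2243 to 3166 in untreated libraries, and in Cxcr2, at 320.4, 551.4 and 469.8 CPM. KO IMQ 3 had Csf3r at 1058 CPM. Not every marker followed: Ngp was 19420, 30710 and 28260 CPM in KO IMQ 1, KO IMQ 5 and WT IMQ 3, against 24450 to 32710 untreated. In these 3 libraries 9, 7 and 6 of the 9 neutrophil markers were below all untreated libraries. Early neutrophil markers sum to 1668, 418.9 and 747.5 CPM there, against 184.6 to 1160 untreated. The summed family level of WT IMQ 3 was 208.5 CPM, with 3 of the 10 genes below all 10 untreated libraries and 1 above. WT IMQ 1 and KO IMQ 4 had Csf3r at 1318 and 1570 CPM, neutrophil marker sums of 149700 and 141800 CPM and monocyte marker sums of 186.6 and 283.9 CPM. Their plasmacytoid dendritic cell markers sum to 73.06 and 71.44 CPM against at most 13.77 elsewhere, of which 72.94 and 71.18 were Bst2, itself interferon-induced, while the defining marker Siglech was at 0 and 0.02596 CPM. KO IMQ 1 and 2, with the highest Gbp3 and, after KO IMQ 4, the next highest, were the libraries high in monocyte markers, with Ccr2 at 416.1 and 106.2 CPM against 16.83 to 43.01 untreated. Of 9 monocyte markers, 5 were called higher in KO IMQ than in KO untreated, where 14.4% of all genes tested were. The part of these differences in the family's levels was not tested.

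**Figure D5:**
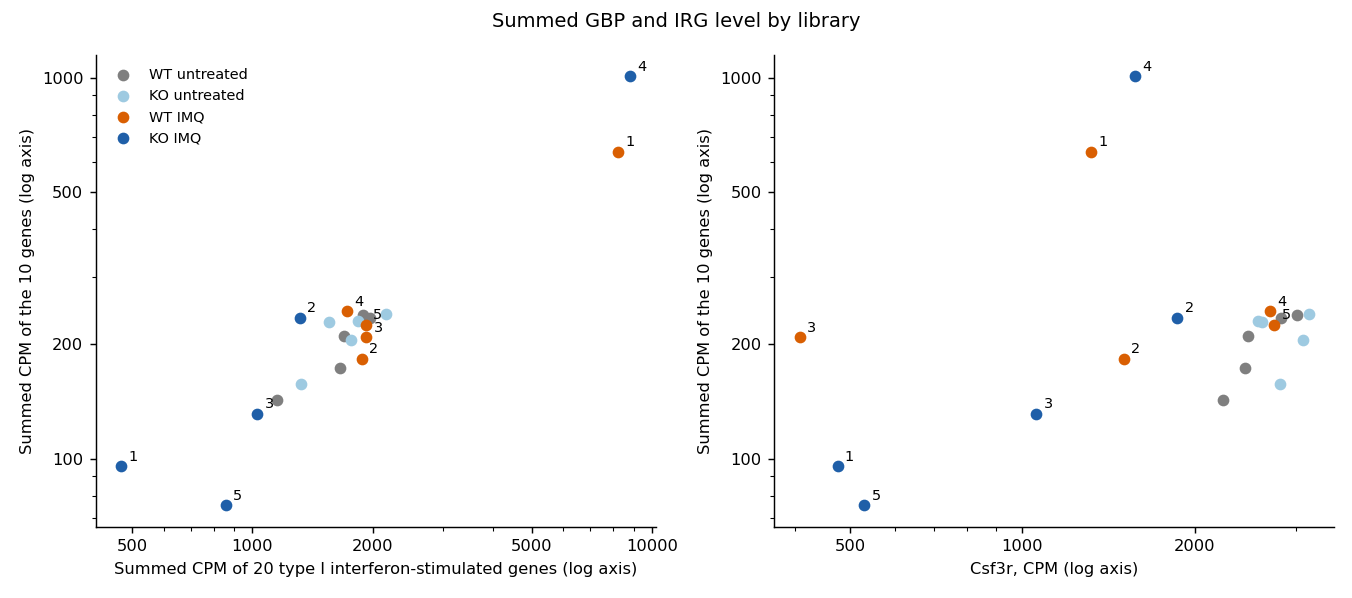
Summed CPM of the 10 genes in each library (y axis, log) against the summed CPM of 20 type I interferon-stimulated genes (left, log axis) and the CPM of Csf3r (right, log axis); IMQ libraries are numbered. WT IMQ 1 and KO IMQ 4 stand apart at the top right of the left panel, and KO IMQ 1 and 5 are low on both axes of both panels.

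Type I interferon-stimulated genes were high in the same libraries. Their sum over 20 genes was 1155 to 2164 CPM untreated, 8217 in WT IMQ 1 and 8832 in KO IMQ 4, against 1721 to 1929 in the other WT IMQ libraries and 469.7 to 1312 in the other KO IMQ libraries. In WT IMQ 1, 19 of the 20 genes were above all untreated libraries, and in KO IMQ 4 all 20 were. WT IMQ 3 had 10 of the 20 above and 1 below, with a median fold of 1.408, although its sum lay inside the untreated range. The 3 most abundant were Oas3, an oligoadenylate synthetase, at 1784 and 1726 CPM in these libraries against 317.6 to 541.6 untreated, Oasl2 at 1191 and 1059 against 130.3 to 274.7, and Cmpk2 at 736.3 and 1047 against 175.1 to 272.8. None of the 20 was called in any comparison by edgeR, with median log2 fold changes of 1.11 in WT and 0.69 in KO for IMQ against untreated. Of all genes tested, 2.34% were called higher with IMQ in WT and 14.4% in KO.

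Several other members of the 2 families were high in these libraries too. Of 17 further GBP and IRG genes 13 passed the filter, and 0 were called in any comparison by edgeR. The share of all genes called in a direction ran from 0% in the interaction to 14.4%, higher with IMQ in KO. Ifi47 (also called Irg47) was 71.19 CPM in WT IMQ 1 and 128.3 in KO IMQ 4 against 7.82 to 14.84 untreated. Gbp9 was 56.40 and 39.28 CPM there, 13.75 to 24.57 untreated and 1.21 in KO IMQ 5. Irgq, which lacks GTPase activity, was 16.85 and 17.90 CPM in WT IMQ 1 and KO IMQ 4 against 16.29 to 21.47 untreated. Above all untreated libraries were 7 of 13 genes in WT IMQ 1 and 8 of 13 in KO IMQ 4.

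Upstream, transcripts of the ligands were at or near 0. Ifng, which encodes interferon gamma, had 37 reads over all 20 libraries and at most 7 in one, Ifnb1 had 0, and none of the 9 ligand genes passed the filter. Of all genes tested, 2.34% were called higher and 1.6% lower with IMQ in WT, and 14.4% and 9.04% in KO. The receptors and kinases, 7 genes, had 0 called in WT for IMQ against untreated and 2 called lower in KO, Ifnar1 (log2 fold change -0.65, edgeR adjusted p = 0.0159) and Jak1 (-0.60, adjusted p = 0.0470). Of 11 transcription factors, Irf8, a factor of the monocyte lineage as well as of interferon responses, was called higher in KO IMQ (1.62, adjusted p = 0.0413), at 132.7 and 46.08 CPM in the monocyte-high libraries KO IMQ 1 and 2 against 9.07 to 22.30 untreated. Irf7, a factor of type I interferon responses, was 804.3 CPM in WT IMQ 1 and 683.1 in KO IMQ 4 against 88.79 to 160.2 untreated. Among 6 inhibitors, Socs3 (-1.36, adjusted p = 0.0197) and Pias1 (-0.29, adjusted p = 0.0482) were called lower in KO IMQ.

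Of 14 other interferon gamma targets, 1 was called higher and 0 lower with IMQ in WT, where 2.34% and 1.6% of all genes were, and 2 higher and 1 lower in KO, where 14.4% and 9.04% were. Nos2, the inducible nitric oxide synthase, was called higher with IMQ in WT (5.38, adjusted p = 0.00702) and in KO (4.06, adjusted p = 0.00651), although it reached only 6.91 CPM, in WT IMQ 3. In KO, Fcgr1, a high-affinity IgG receptor also made by monocytes, was called higher (1.99, adjusted p = 0.0171), with its top value of 23.74 CPM in KO IMQ 1, and Ido1 was called lower (-2.09, adjusted p = 0.0158). The list's median log2 fold change for IMQ against untreated was -0.11 in WT and 0.31 in KO. The antigen-processing genes Tap1 and Psmb8 were also high in WT IMQ 1 and KO IMQ 4. Tap1 was 343.7 and 449.3 CPM there against 111.7 to 170.0 untreated, and Psmb8 195.3 and 256.7 against 78.98 to 114.2. The list as a whole was mixed. In WT IMQ 1, 7 of the 14 genes were above all 10 untreated libraries and 4 below, and in KO IMQ 4, 7 were above and 2 below.

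Calls among downstream partners are set against the 14.4% of all genes called higher and 9.04% called lower with IMQ in KO, and 2.34% and 1.6% in WT. Among 10 autophagy conjugation genes, whose products help load these GTPases onto vacuoles, Map1lc3a was called higher (0.65, adjusted p = 0.0318) and Map1lc3b (-0.71, adjusted p = 0.0271) and Atg7 (-0.61, adjusted p = 0.0302) lower in KO IMQ, against 0 in WT. Among 8 inflammasome genes, Pycard, the adaptor ASC, was called higher in WT (0.82, adjusted p = 0.0174) and KO (1.00, adjusted p = 0.00460). Nlrp3 (-2.16, adjusted p = 0.00894) and Il1b (-2.02, adjusted p = 0.0275) were called lower in KO. Of the 5 prenylation enzymes that modify GBPs, Pggt1b was called higher in KO (0.49, adjusted p = 0.0277). Between the genotypes, with or without IMQ, 0 genes of these pathway lists were called by edgeR. Of all genes, 0.185% were called higher and 0.107% lower in KO with IMQ, and 0.107% and 0.0998% without it.

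The genes whose log2 CPM was most like the mean of the 10 over the 20 libraries were Gm12250, whose RefSeq synonym is Irgb10 (Pearson r = 0.907), 9330175E14Rik (0.904), Casp1 (0.888), Nlrc5 (0.883), Psmb8 (0.875), Mir6381 (0.873), Psmb9 (0.871), Ifi44 (0.862), Gm6548 (0.849) and Tap1 (0.847). Mir6381 shares exonic bases with Gbp2 on the opposite strand, so its reads may not be separate from those of Gbp2. Without WT IMQ 1 and KO IMQ 4 these values were 0.585 for Gm6548 to 0.814 for Ifi44. With each group centred on its mean, 8 of the 10 genes were again in the top 10, joined by Slc45a4 and Trim30d, and Trim30d was at 0.0619 without the 2 libraries. These values describe 20 libraries that share treatment groups and a wide range, set by those 2 libraries at the top and KO IMQ 5 at the bottom. The mean log2 CPM of the 10 genes was 4.032 in WT IMQ 1, 4.475 in KO IMQ 4 and 0.9351 in KO IMQ 5, against 2.047 to 3.079 untreated. KO IMQ 5 stayed in when the 2 libraries were left out. Casp1, the inflammasome protease, was 83.15 and 84.67 CPM in WT IMQ 1 and KO IMQ 4 against 37.97 to 54.88 untreated, and Nlrc5, a transactivator of MHC class I genes, was 94.13 and 135.4 CPM against 11.83 to 20.04.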

How the data were processed

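Poly(A) RNA of bone marrow neutrophils was sequenced by the authors, and the 20 deposited per-library files hold whole-number read counts per gene symbol, with no normalization. The submitters' processing notes list bcl2fastq, STAR 2.7.8a, HTSeq 2.0.1 and mm10, whereas the study's methods name another aligner for Read 1. The annotation and the strand setting were not given in the sources used here. Reads on no feature (51.9 to 57.8%), ambiguous reads (0.335 to 0.431%) and reads not uniquely aligned (4.37 to 6.50%) were kept out of library sizes. The combined table repeats these counts and was not used. The methods name 2 sequencers without saying which library ran on which, so no batch was modelled.

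One edgeR 4.0.16 quasi-likelihood model of the 4 groups (R 4.3.3) was fitted to the 14030 genes kept by filterByExpr, with TMM factors of 0.854 to 1.38, and p-values were adjusted over all of them by the Benjamini-Hochberg method at 0.05. CPM use the TMM-scaled library sizes. The fit was tested on simulated counts. The members and gene lists were chosen with earlier results of these data known. All 10 genes are named. From each list, genes past the threshold in a comparison are named (at most the 5 with the smallest p) and otherwise the 3 with the highest mean level, with counts for each list. A few others, such as Irf7, Tap1, Psmb8, Casp1 and Nlrc5, were named after their values were seen, and 1 gene of these lists is not reported here.

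Alternatives were DESeq2 1.42.0, RLE factors, library size only, no filter, at least 10 reads in every library, limma 3.58.1 on log2(CPM + 0.1), only the groups compared, a replicate block and each library left out. Residuals of same-numbered libraries correlated at 0.128 to 0.426 between KO groups, all above 0.1, and at 0.0728 to 0.384 between WT groups, -0.441 to 0.206 between untreated groups and -0.497 to 0.343 between IMQ groups. Exon lengths came from GENCODE vM21 and promoters from RefSeq GRCm38.p6.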

Additional observations from a re-analysis of the deposited data

Results flagged for a closer look

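In 11 of the 40 combinations of gene and group, 1 library stood far from the other 4, by a gap of more than 0.71 of the group's range. The nominal rate of this cut, about 1 in 20, holds for independent, normally distributed values, which CPM need not be, and the 10 genes share libraries. The rate over all genes was not computed, so no excess for these genes is shown. KO IMQ 4 was the far library for Gbp2 (167.2 CPM), Gbp7 (301.8), Irgm1 (184.3), Irgm2 (175.8) and Igtp (158.6), each the highest of the group. WT IMQ 1 was the far library for Gbp6 (1.664 CPM), Gbp7 (186.0), Igtp (85.62) and, at 1.081 CPM, Iigp1, for which it lay inside the untreated range. KO untreated 5 was the lowest library for Gbp2 (20.93 CPM) and Igtp (23.62).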

How the results depend on the processing

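Of 1029 recomputed log2 fold changes of the 10 genes, 917 kept their direction and side of the threshold, 2 kept their direction and became called, and 110, over 26 of 50 results, changed sign. The causes were not tested. Genes called for IMQ against untreated in WT numbered 554, and 1480 with DESeq2 (which called 1 of the 10 genes higher), 326 without a filter, 186 with only the groups compared, 117 without both WT IMQ 1 and KO IMQ 4, and 48 (without WT untreated 2) to 1989 (without WT IMQ 5) with 1 library left out. Of those called with all libraries, 329 were higher and 225 lower, and limma called 283 higher and 423 lower. In KO they numbered 3292, and 1612 (without KO untreated 4) to 4037 (without KO IMQ 2) with 1 library left out, with 0 to 1 of the 10 genes called higher, and without both libraries 3 of the 10 called lower. For KO against WT untreated there were 29, and 59 with only the groups compared. For KO against WT with IMQ there were 41, and 313 with DESeq2, 16 with only the groups compared and 20 (without WT IMQ 4) to 3129 (without WT IMQ 3) with 1 library left out, with 0 to 1 of the 10 genes called lower. For the interaction there were 0, and 0 to 1 with 1 library left out.

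With the replicate block, genes called were 190 for IMQ against untreated in WT, 3114 in KO, 26 and 38 between the genotypes without and with IMQ, and 0 for the interaction, and 0 of the 10 genes were called in any comparison. The pairing by number was borne out by the residuals only between the KO groups. The block turned the sign of Gbp3 (-0.10), Gbp4 (-0.17) and Gbp5 (-0.0915) for IMQ in WT, Irgm2 (-0.27) for IMQ in KO, Gbp7 (-0.51), Irgm1 (-0.47) and Igtp (-0.39) between genotypes with IMQ, and Gbp7 (-0.37) in the interaction.

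Among signs that turned with other settings, limma gave Gbp4 -0.0848 for IMQ in WT, Gbp7 -0.23, Irgm1 -0.12, Irgm2 -0.54, Igtp -0.31 and Iigp1 0.071 for IMQ in KO, Gbp7 -0.66, Irgm1 -0.52 and Igtp -0.58 between genotypes with IMQ, and Gbp7 -0.57 in the interaction. Library sizes alone, which put the median of all genes at 0.16 for IMQ in KO, 0.23 between genotypes with IMQ and 0.20 in the interaction, gave Gbp3 -0.0051 for IMQ in WT, Iigp1 0.0196 for IMQ in KO, Gbp2 0.0097 and Irgm2 0.0887 between genotypes with IMQ, and Irgm1 0.0288 and Igtp 0.0194 in the interaction. For Irgm2 between genotypes with IMQ, no filter gave 0.0155, the stricter filter 0.0156 and only the groups compared 0.0311, and no filter gave Irgm1 0.0075 in the interaction. Without both libraries, signs turned for Gbp3 (-0.20), Gbp4 (-0.36), Gbp5 (-0.29) and Gbp7 (-0.0383) for IMQ in WT, Gbp2 (-0.27), Gbp7 (-0.83), Irgm1 (-0.69), Irgm2 (-0.90) and Igtp (-0.80) for IMQ in KO, Gbp7 (-0.90), Irgm1 (-0.80) and Igtp (-0.81) between genotypes with IMQ, and Gbp6 (0.0606) and Gbp7 (-0.79) in the interaction.

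With 1 library left out, values that changed sign ranged, for IMQ in WT, from -0.20 to 0.30 for Gbp3, -0.36 to 0.45 for Gbp4, -0.29 to 0.32 for Gbp5 and -0.0385 to 0.71 for Gbp7, each lowest without WT IMQ 1. For IMQ in KO they ranged from -0.27 to 1.02 for Gbp2, -0.83 to 1.01 for Gbp7, -0.69 to 0.87 for Irgm1, -0.90 to 0.39 for Irgm2 and -0.80 to 0.75 for Igtp, each lowest without KO IMQ 4, and -0.30 to 0.39 for Iigp1. Between untreated genotypes they were -0.0661 to 0.12 for Irgm1 and -0.0537 to 0.74 for Iigp1. With IMQ they were -1.17 to 0.53 for Gbp2, -0.0768 to 0.74 for Gbp4, -0.0908 to 1.505 for Gbp6, -1.50 to 0.69 for Gbp7, -1.30 to 0.53 for Irgm1, -1.04 to 0.27 for Irgm2 and -1.19 to 0.50 for Igtp. In the interaction they were -1.37 to 0.33 for Gbp2, -0.0894 to 1.00 for Gbp5, -1.16 to 0.44 for Gbp6, -1.39 to 0.80 for Gbp7, -1.34 to 0.50 for Irgm1, -1.15 to 0.14 for Irgm2 and -1.33 to 0.36 for Igtp. At 1 to 88 reads, Gbp6 was limited by depth, as was Gbp4.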
